A study of Mus musculus with 15 samples.

Results

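The 52 genes described here encode postsynaptic scaffold proteins and synaptic adhesion molecules. They were taken as a fixed list of symbols, out of 21938 protein-coding genes that GENCODE M21 annotates on chromosomes 1 to 19, X and Y. The study asked how the loss of a writer and an eraser of histone H3 lysine 4 methylation, KMT2A and KDM5C, shapes H3K4me3 in the amygdala. H3K4me3 ChIP-seq was performed on 11 amygdala samples of adult male F1 129xB6 mice, with 2 samples from WT mice and 3 each from Kmt2a-HET, Kdm5c-KO and Kmt2a-Kdm5c double-mutant (DM) mice, beside 4 input samples. The mothers of the F1 mice were C57BL/6J carriers of the Kdm5c mutation, and the fathers carried the Kmt2a mutation. The values below come from the WT peaks alone, which were deposited as 1 list for both WT mice. The WT mice carried neither the Kmt2a nor the Kdm5c mutation, so the values describe the F1 hybrid background and no genotypes were compared. The tissue was whole amygdala with all of its cell types, so a lower score from fewer cells bearing the mark cannot be told apart from less of the mark per cell.

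Each entry of the list is the summit of a peak, 1 bp wide, with a score that was read as −log10 of the peak caller's q-value. The score grows with depth and with enrichment over the input, and it is not a level of the mark or of the mRNA. A summit within 1 kb of any annotated transcription start site (TSS) of a gene was called a promoter summit, and the gene was then called marked. A summit inside the gene and over 1 kb from all of its TSSs was called internal. The list held 24139 summits on these chromosomes, with scores from a lower quartile of 15.0 through a median of 102.3 to an upper quartile of 201, and at most 342. With both WT mice in 1 list there is no spread between replicates, so every comparison here is a description without a test. Intervals, given at 95%, cover counting error only.

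H3K4me3 is carried by the nucleosomes that follow the start sites of most active genes, and long neuronal genes often have several such start sites that give proteins of different length. At excitatory synapses, membrane-associated guanylate kinases (MAGUKs) anchor glutamate receptors, SAPAP proteins link the MAGUKs to SHANK proteins, and Homer proteins tie SHANKs to metabotropic receptors. CaMKII, a calcium-activated kinase, is among the most abundant proteins of this meshwork. Adhesion molecules such as neuroligins, LRRTMs, SLITRKs and SynCAMs reach across the cleft to presynaptic partners, among them neurexins and the receptor phosphatases of the LAR type.

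The DNA at the summits of the genes with the highest and lowest best scores, and of genes with no promoter summit, shows how different the marked sequences were. Each line holds 151 bases of GRCm38 on the strand of the gene, 5′ to 3′, with CG dinucleotides in capitals. The window was centred on the summit, or moved to the nearest place free of exons annotated in GENCODE or RefSeq. The first 3 lines belong to the 3 members with the highest best scores.
Camk2d, 34 bp downstream of the summit, chr3:126597505-126597655, plus strand: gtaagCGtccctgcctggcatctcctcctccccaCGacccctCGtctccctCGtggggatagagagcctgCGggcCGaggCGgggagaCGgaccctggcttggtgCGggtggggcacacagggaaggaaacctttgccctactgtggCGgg
Cadm3, at the summit, chr1:173367085-173367235, minus strand: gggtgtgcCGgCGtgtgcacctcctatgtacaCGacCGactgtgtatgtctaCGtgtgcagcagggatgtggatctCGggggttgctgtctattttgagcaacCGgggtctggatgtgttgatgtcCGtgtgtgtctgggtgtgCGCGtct
Cadm2, 321 bp downstream of the summit, chr16:67620020-67620170, minus strand: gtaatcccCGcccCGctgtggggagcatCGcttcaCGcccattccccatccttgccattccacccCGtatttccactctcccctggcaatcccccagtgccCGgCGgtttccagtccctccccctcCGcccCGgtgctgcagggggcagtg
The next 2 lines belong to the 2 members with the lowest best scores, at the promoter summit of Agap2 and at the summit of Camk2b that lay just beyond 1 kb.
Agap2, at the promoter summit, chr10:127076056-127076206, plus strand: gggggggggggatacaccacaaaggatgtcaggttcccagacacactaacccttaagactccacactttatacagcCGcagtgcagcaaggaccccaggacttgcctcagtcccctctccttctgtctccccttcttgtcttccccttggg
Camk2b, at the internal summit, chr11:6064454-6064604, minus strand: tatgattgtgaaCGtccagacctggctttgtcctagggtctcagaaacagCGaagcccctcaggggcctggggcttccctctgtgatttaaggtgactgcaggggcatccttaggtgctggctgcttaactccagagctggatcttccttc
The last 2 lines belong to members without a promoter summit, at the summit nearest to a TSS.
Il1rapl1, at the nearest summit, chrX:88114126-88114276, minus strand: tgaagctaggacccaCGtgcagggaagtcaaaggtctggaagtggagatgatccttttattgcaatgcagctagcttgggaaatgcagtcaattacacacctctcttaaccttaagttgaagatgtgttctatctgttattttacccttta
Lrrc4, at the nearest summit, chr6:28832903-28833053, minus strand: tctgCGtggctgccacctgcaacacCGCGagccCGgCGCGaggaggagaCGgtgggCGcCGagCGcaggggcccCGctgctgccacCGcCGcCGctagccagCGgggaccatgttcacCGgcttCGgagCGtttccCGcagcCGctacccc
The windows of Camk2d and Cadm3 held 10 CG dinucleotides each and that of Cadm2 held 9. The Lrrc4 window held 20, with 74.8% G or C, whereas those of Camk2b, Agap2 and Il1rapl1 held 2, 1 and 1. The Camk2b window nevertheless lay at a summit scoring 194 and the Agap2 window at one scoring 12.3.

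Of the 52 genes, 48 were marked (92.3%, Wilson interval 81.8% to 97.0%), beside 64.7% of all protein-coding genes. The 48 best scores ranged from 12.3 to 294, with a median of 209.7 and quartiles of 169 and 238. Over the 14197 marked protein-coding genes, the median was 194.6 and the quartiles were 129.8 and 230.2. Among the marked members, 17 scored above that upper quartile and 7 below that lower quartile. The share with a promoter summit was thus above the background, while the score itself was spread over nearly the whole range of marked genes. The members were long, with a median length of 82.1 kb against 17.4 kb over all protein-coding genes. Of the 24 members of at least 100 kb, 20 were marked (83.3%), against 89.2% of 2492 genes of that length, so among long genes the share of marked members was not above the background. The median best score of the 20 marked long members was 228, against 192 over marked genes of at least 100 kb.

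The members differed from the background most in how many summits they held. Of the 52, 28 had 2 or more promoter summits (53.8%), against 11.7% of all protein-coding genes, and 14 had 3 or more. With the outermost TSS of each gene alone, 7 members had 2 or more (13.5%, against 4.36%), and the median best score of members was then 189, below the 194 of all genes. Separate marked promoters were counted as groups of TSSs over 1 kb apart, and 25 members had 2 or more marked groups (48.1%), against 8.17% of all genes. An internal summit was present in 35 members (67.3%), against 14.7% of all genes and 44.5% of genes of at least 100 kb. An internal summit scoring at least 10 was present in 26 members (50%), against 9.29% of all genes. Among genes of at least 100 kb, 58.3% of members and 30.1% of all genes had 2 or more promoter summits, and 79.2% of members had an internal summit. Members also had more annotated TSS groups, a median of 3 against 2, and 89 of their 206 groups were marked (43.2%), against 33.7% of the groups of all genes. In genes of at least 100 kb the share of marked groups was 34.7% in members and 33.1% overall. The part of length and annotation in these shares was not tested beyond these values.

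**Figure D1:**
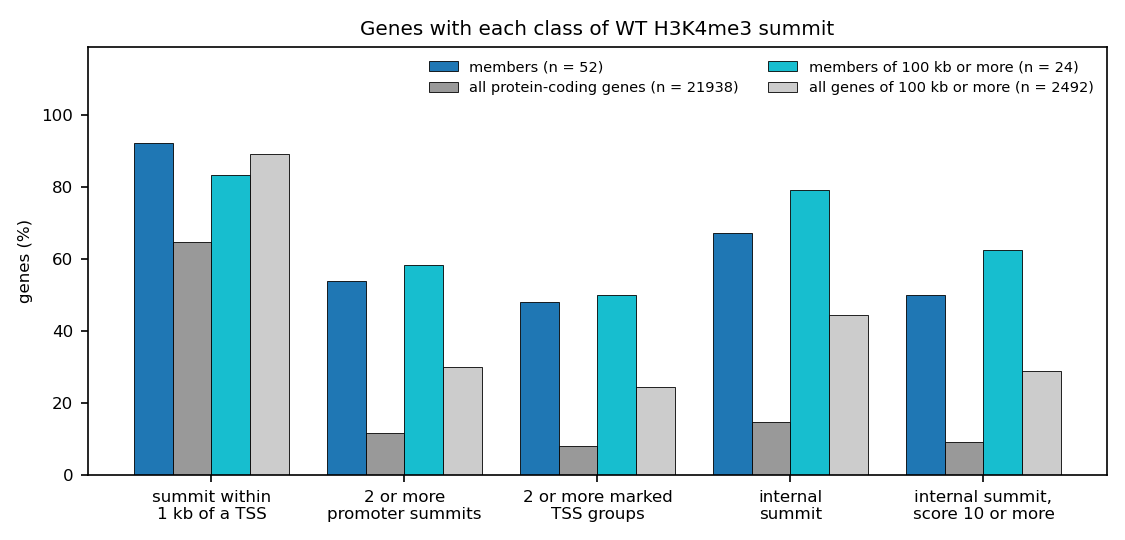
Bars give the percent of genes with each class of WT H3K4me3 summit, for the 52 members, all 21938 protein-coding genes, and the 24 members and 2492 genes of at least 100 kb. The share of members exceeds that of all genes in each class. Among long genes the first class is the exception, with 83.3% of members (interval 64.1% to 93.3%) and 89.2% of all genes.

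The tissue was checked against markers. All 8 neuronal markers were marked, with best scores of 104.8 to 267, as were 5 of 5 astrocyte markers at 29.2 to 188 and 6 of 6 oligodendrocyte markers at 81.1 to 192. The 4 microglial and 4 endothelial markers were all marked at low scores, between 11.8 and 33.8. Of 11 genes of other tissues, 2 were marked. One was Actn3, a muscle gene scoring 229.7 that has a TSS of Zdhhc24 within 1 kb of its own, and the other was Ckm, at 9.05. The list thus held promoters of neurons and of glia, and the cell types that gave each member's summits were not tested.

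The 4 MAGUK genes were all marked, each at 2 or more TSS groups. Dlg2 (ENSMUSG00000052572, chromosome 7, 90476672 to 92449247, plus strand), which encodes PSD-93, had 7 promoter summits at 6 of 8 TSS groups, the most of any member. Its best summit scored 234 at 91091310, 582 bp downstream of a TSS and 615 kb from the outermost one. The summit of the outermost promoter scored 184, and it also lay 399 bp from a TSS of Tmem126b on the other strand. Summits of 91.8 and 158 stood 1196 kb and 1759 kb into the gene, at TSSs of transcripts with no coding annotation in GENCODE. RefSeq mRNAs start 661 bp upstream of the first and 515 bp upstream of the second. The 3 further promoter summits scored 4.45, 8.07 and 22.8. Between them stood 3 internal summits of 181, 187 and 165, all in introns, 411 kb, 786 kb and 1067 kb from the outermost TSS. The first of these lay 462 bp downstream of a RefSeq TSS and within 1 kb of TSSs of the noncoding genes Gm45161 and Gm45159. Strong summits were therefore spread along nearly the whole gene.

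Dlg1, which encodes SAP97, had summits of 102.3 at its outermost promoter and 189 at a second one 91.5 kb into the gene, with internal summits of 64.5 and 12.1. Dlg3, the X-linked gene of SAP102, had its best summit of 187 at the outermost promoter, and 2 weaker ones of 46.3 and 52.1 within 10 kb. Dlg4 (ENSMUSG00000020886, chromosome 11, 70016942 to 70047522, plus strand) encodes PSD-95, the scaffold most used as a marker of the postsynaptic density. Its best promoter summit scored only 82.7, in intron 3 of the transcript with the longest coding sequence, with others of 47.7 and 35.3. Neither of its first 2 TSS groups, which hold 10 of its 22 transcripts, had a summit within 1 kb. An internal summit of 182 at 70021032 lay 2153 bp downstream of the nearest TSS and was the highest inside the gene. Dlg4 thus ranked among the lowest members by the 1 kb window while it carried a summit above the list median a little further in.

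All 3 SHANK genes were marked at 2 or more TSS groups. Shank3, the gene deleted in Phelan-McDermid syndrome, had 5 promoter summits at 3 of 5 TSS groups. Its summits scored 185 and 132 around the outermost TSS, 116 and 117 about 24 kb in, and 186 at 33.5 kb, so that the outermost and the last marked promoter scored alike. The pair in the middle also lay within 1 kb of a TSS of Gm15609, a lincRNA on the other strand. Shank2 (chromosome 7, 144001928 to 144424494) had no summit at its first 2 TSS groups. Its marked promoters stood 174 kb and 283 kb into the gene with scores of 149 and 207, and internal summits of 131 and 116 lay 503 bp and 383 bp downstream of RefSeq TSSs. Shank1 had summits of 173 at its outermost promoter and of 155 and 23.7 at a second marked group 25.8 kb in. GENCODE has no coding transcript at that group, whereas a RefSeq mRNA model starts 126 bp upstream of the summit of 155. An internal summit of Shank1 scored 97.1, in exon 25 of 25.

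The 2 Homer genes of the list scored low. Homer2 had summits of 94.2 and 53.2, 803 bp apart, at its outermost TSS group, and no summit at its other 2 groups. Homer3 had 1 summit of 82.0, higher than 16.4% of marked genes, and no internal one. Homer1, among the synapse genes outside the list, was marked at 234, above the upper quartile of marked genes, so the low scores did not extend to it.

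The 4 SAPAP genes, which encode the linkers between MAGUKs and SHANKs, each had 2 or more marked promoters. Dlgap1 had nearly equal summits of 226 and 235 at its outermost promoter and 553 kb into the gene, a weak one of 12.1 and an internal one of 12.7 in exon 12 of 12. Dlgap2 had 179.8 and 186 at promoters 286 kb apart and 16.5 at another one. GENCODE has no coding transcript at the promoters of 186 and 16.5, and with coding TSSs alone the best score of Dlgap2 was 179.8. Dlgap4 had 102.4 and 177 around its outermost TSS, near a TSS of the noncoding gene Gm14169, and 223 at the TSS group 107 kb in, where 9 of its 14 transcripts start. Dlgap3 had 157 at the outermost promoter and 33.9 at the next, 3.7 kb in. It also had 5 internal summits, of which the 2 scoring at least 10 were 27.1, in intron 1, and 57.2, in exon 12 of 12.

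The CaMKII genes held both the highest and the second lowest best score of the list. Camk2d (ENSMUSG00000053819, chromosome 3, 126596302 to 126846326, plus strand) had 1 promoter summit of 294 at 126597546, 132 bp downstream of a TSS and higher than 99.1% of marked genes. Only 1 of its 10 TSS groups was marked, and its 2 internal summits scored at most 5.31. Camk2a (ENSMUSG00000024617, chromosome 18, 60925618 to 60988152), the classical forebrain isoform, had 1 summit of 273. It lay 293 bp upstream of the nearest TSS and within 1 kb of TSSs of 2 groups. It was in intron 1, 1.038 kb inside the outermost TSS, and with that TSS alone Camk2a was not marked. Camk2b (ENSMUSG00000057897, chromosome 11, 5969644 to 6066362, minus strand) had a promoter summit of only 31.9, 271 bp upstream of its nearest TSS and 0.343 kb inside the outermost one. Its internal summit of 194 at 6064529, in intron 1, lay 1009 bp downstream of a TSS, just beyond the window. A further internal one scored 24.9, 59.6 kb into the gene. Camk2g had summits of 104.0 and 9.08 at 3 TSS groups near its 5′ end, the higher of them within 1 kb of 2 groups. By the 1 kb window the genes of the 2 main brain subunits, Camk2a and Camk2b, therefore stood far apart, although a summit of 194 lay just outside the window of Camk2b.

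The neuroligins bind presynaptic neurexins. Nlgn1 (chromosome 3, 25426215 to 26332460, minus strand) had 232 at its outermost promoter, near a TSS of the antisense gene A830092H15Rik, and 263 at a second one 180 kb in, higher than 93.3% of marked genes, and an internal summit of 17.7. Nlgn3, on chromosome X, had 1 summit of 191, 174 bp downstream of its TSS.

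Of the 4 LRRTM genes, 3 lie inside genes of alpha-catenins, Lrrtm1 in Ctnna2, Lrrtm2 in Ctnna1 and Lrrtm3 in Ctnna3, and Lrrtm4 does not. Lrrtm1, Lrrtm2 and Lrrtm4 had 1 promoter summit each, and these scored 228, 227 and 221, the narrowest range of any role group with 3 or more marked genes. The summit of Lrrtm2 also lay 144 bp from a TSS of Ctnna1 on the other strand, so it cannot be assigned to either gene alone. Lrrtm3 had none, although a summit of 243 lay 1997 bp downstream of its nearest TSS, in exon 2 of 3.

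The CASPR genes encode neurexin-like proteins of axons and synapses. Cntnap2 (ENSMUSG00000039419, chromosome 6, 45059357 to 47304213, plus strand), one of the longest mouse genes, had 3 marked promoters. They scored 245 at the 5′ end, 95.8 at 1985 kb and 168 at 2185 kb, with no internal summit over the 1984434 bp between the first and the second. The summit of 95.8 also lay 314 bp from a TSS of the processed pseudogene Gm6352. Cntnap1 had 202 at an outermost, noncoding TSS, also 117 bp from a TSS of Plekhh3, and 222 at the TSS of its coding transcript, 855 bp from a TSS of Ccr10. Its internal summits of 85.6 and 27.3 lay between these. Cntnap4 had 145 at its outermost promoter, shared with the antisense gene Gm26994, and an internal summit of 17.7 in intron 1.

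The receptor phosphatases of the LAR type are presynaptic hubs for SLITRKs, netrin-G ligand 3 and Il1rapl1. Ptprd (ENSMUSG00000028399, chromosome 4, 75941238 to 78211961, minus strand) was the longest member at 2271 kb. It had 183 at its outermost TSS group and 67.6 at a coding TSS 1867195 bp downstream. The outermost group lay near a TSS of the noncoding gene B230208B08Rik. GENCODE has no coding transcript there, whereas RefSeq mRNA models start 414 bp upstream of the summit. The internal summit of Ptprd that scored 158, at 1763 kb, lay 1087 bp from a GENCODE TSS and 815 bp from a RefSeq one. Another internal summit scored 11.1. Ptprs had summits at 4 of 10 TSS groups, with 237 at the 5′ end, 137 at 14.4 kb and 2 weak ones of 5.96 and 5.24. Ptprf had 149 and 37.5, 808 bp apart, at 1 TSS group and an internal summit of 37.5 in intron 5. Il1rapl1 (ENSMUSG00000052372, chromosome X, 86740870 to 88115645, minus strand) was not marked, and its 1 internal summit scored 156, 1444 bp downstream of the outermost TSS, in intron 1.

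The netrin-G ligands bind netrin-G proteins or LAR-type phosphatases. Lrrc4c (chromosome 2, 96318169 to 97631666) had 213 at its outermost promoter and 233 at a second one, 1151030 bp further, and an internal summit of 49.2. Lrrc4b had 192 and 101.3 around its outermost TSS and 206 at a promoter 13.7 kb in. Lrrc4, which lies inside Snd1, had no promoter summit, and the nearest one, of 236, lay 1231 bp upstream of its outermost TSS, outside the gene.

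SLITRK genes are short, and their coding sequence lies in 1 exon. Slitrk1 (ENSMUSG00000075478, chromosome 14, 108908800 to 108914158, minus strand) had 1 summit of 265, 273 bp downstream of its TSS, in exon 1. Slitrk3 and Slitrk5 scored 250.02 and 243, with internal summits of 140.1, in intron 1, and 78.5, in exon 2 of 2. Slitrk4 scored 206, at a summit within 1 kb of both of its TSS groups, and Slitrk2 scored 142 and 79.5 at separate promoters 3515 bp apart. Slitrk6 (ENSMUSG00000045871, chromosome 14, 110748580 to 110755149, minus strand) was the lowest of the family, with 1 summit of 74.8. The family thus ran from a gene above 94.1% of marked genes to one above 15.5% of them.

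SynCAMs are adhesion molecules of the immunoglobulin class. Cadm3 (ENSMUSG00000005338, chromosome 1, 173333258 to 173367695, minus strand) and Cadm2 (ENSMUSG00000064115, chromosome 16, 66655421 to 67620908, minus strand) had 1 promoter summit each, of 275 and 273. Cadm2 also had 5 internal summits, the highest of 42.1 in its first intron, 138 kb from the outermost TSS. Cadm4 was lower, with 149.6 and 100.4, 927 bp apart, and an internal summit of 50.4. Cadm1 (ENSMUSG00000032076, chromosome 9, 47530173 to 47857637, plus strand) was not marked, and its summit of 232 lay 1368 bp downstream of the nearest TSS, in intron 1. Igsf9b, an adhesion molecule of inhibitory synapses, had 1 promoter summit of 227 and internal ones of 26.7 and 12.8, both within 1 kb of RefSeq TSSs.

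The remaining members are scaffolds and regulators of small GTPases. Kalrn (ENSMUSG00000061751, chromosome 16, 33969073 to 34573532, minus strand), an exchange factor for small GTPases that shapes spines, had 5 promoter summits at 4 of 12 TSS groups. They scored 212 and 97.9 around the outermost TSS, 207 at 60.1 kb, 122 at 311 kb and 44.0 at 478 kb, where an internal summit of 27.4 followed. The scores thus fell from the first to the last marked promoter. Iqsec1 had no summit within 1 kb of its outermost TSS, although an internal one of 151 lay 1099 bp downstream of it, and it had promoter summits of 239, 138 and 55.0 from 179 kb onward. Another internal summit of Iqsec1 scored 15.9. Iqsec2, X-linked, had 193 and 26.1 at the 5′ end and 16.5 at a second promoter, and Iqsec3 had 1 summit of 259. Tanc2 had 255 and 121 at 1 promoter and internal summits of 139 and 37.2, Tanc1 had 179.8, and Baiap2 had 234 and 190.4. Agap2 (ENSMUSG00000025422, chromosome 10, 127075284 to 127093169, plus strand), the gene of the GTPase-activating protein PIKE, had the lowest best score, 12.3. Its promoter summit lay 847 bp downstream of a TSS that is noncoding in GENCODE and 862 bp downstream of a RefSeq mRNA start. Its internal summit of 199.99 at 127080069 lay 1162 bp downstream of the TSS of its GENCODE coding transcripts, and another scored 10.5.

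**Figure D2:**
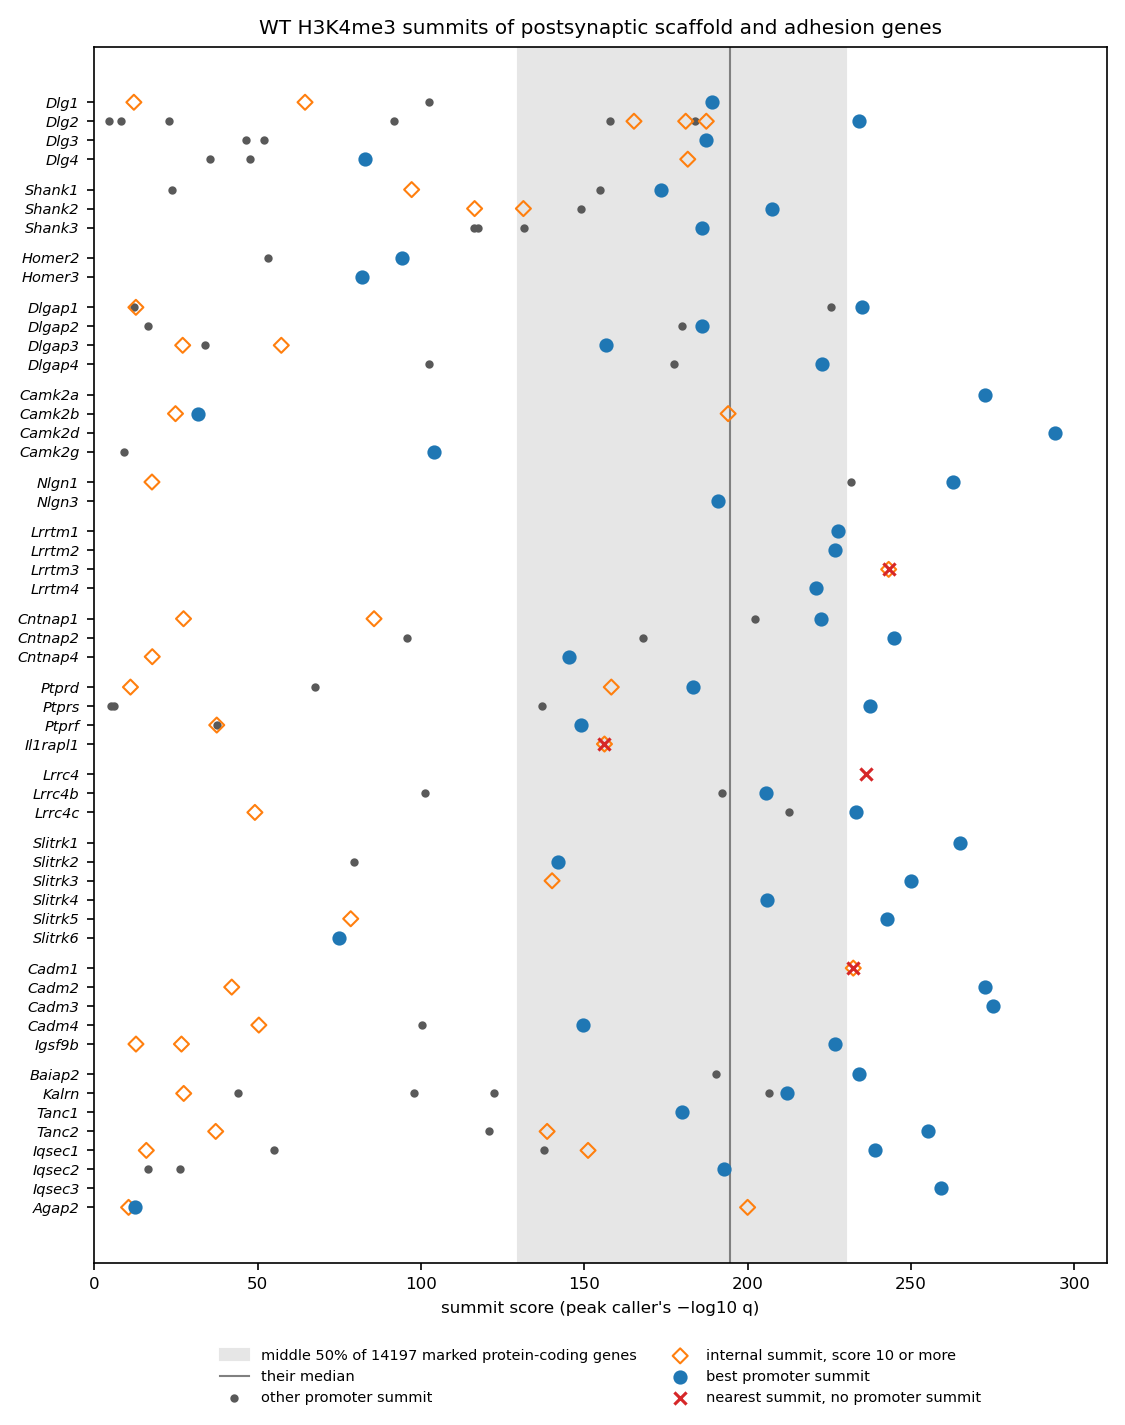
Each row is a member, ordered by role, and the horizontal axis is the summit score (−log10 q). Filled large circles are best promoter summits, small circles other promoter summits, open diamonds internal summits scoring at least 10, crosses the nearest summit of the 4 genes without a promoter summit, and the shaded band the quartiles of all marked genes (129.8 to 230.2). Camk2b, Dlg4 and Agap2 have an internal summit far above their best promoter summit.

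The 4 members without a promoter summit were Lrrtm3, Cadm1, Il1rapl1 and Lrrc4, and each had a strong summit close by. These scored 243, 232, 156 and 236, and they lay 1368 bp to 1997 bp downstream of a TSS in the first 3 genes and 1231 bp upstream in Lrrc4. None of them lay within 1 kb of a TSS of another gene or of a RefSeq TSS of the same gene. With a 3 kb window all 52 members were marked, against 67.1% of all genes. The same window raised the best score of Camk2b to 194 and that of Agap2 to 199.99. For Dlg4 it gave 238, at a summit 1727 bp upstream of the gene and 162 bp from a TSS of Acadvl, the neighbouring gene on the other side of the promoter. Being unmarked here therefore did not mean the lack of a nearby summit in any of the 4 genes.

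At marked members the best summit lay further into the gene than at other genes. Its median place was 341.5 bp downstream of the nearest TSS, with quartiles of 129.8 bp and 498.5 bp, against 171 bp, 49 bp and 327 bp over all marked genes. It lay downstream in 41 of 48 members (85.4%, against 79.3%), and over 500 bp downstream in 12 (25%, against 11.6%). Lrrc4c and Ptprf were the furthest, at 922 bp and 875 bp, and that of Camk2g lay the furthest upstream of its nearest TSS, at 447 bp, yet inside the outermost one. In genes of at least 100 kb the medians were 413.5 bp in members and 203 bp overall. With a window of 500 bp the medians were 223.5 bp and 154 bp. At 5 members the best summit also lay within 1 kb of a TSS of another gene, which was protein-coding for Lrrtm2 (Ctnna1) and Cntnap1 (Ccr10).

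**Figure D3:**
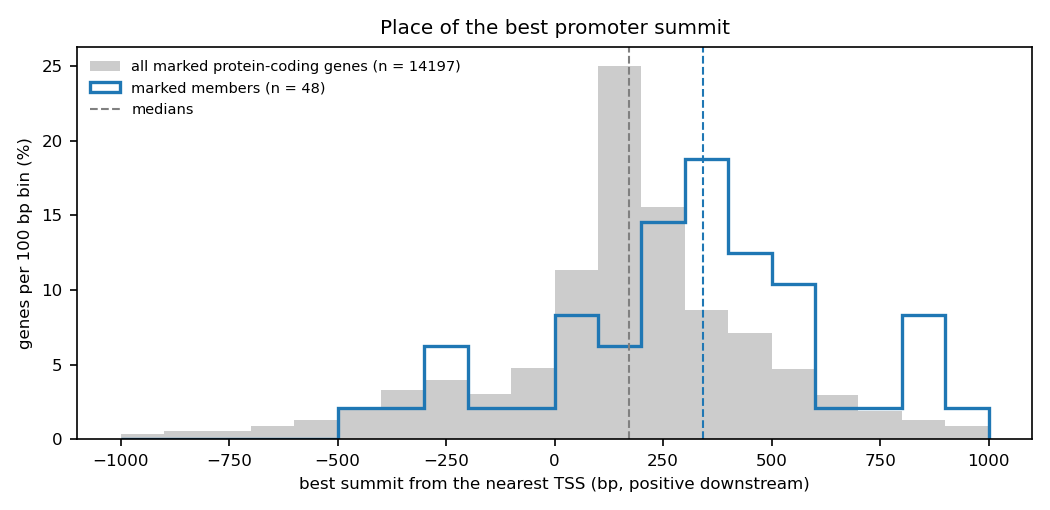
Histograms give the percent of genes per 100 bp bin of distance from the nearest TSS to the best promoter summit, positive downstream, for 14197 marked protein-coding genes (filled) and 48 marked members (outline). The dashed lines are the medians, 171 bp for all genes and 341.5 bp for the members.

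The 25 members with separate marked promoters differed in which of them scored highest. In 2 of the 25, Camk2a and Slitrk4, 1 summit lay within 1 kb of both groups. In 10 members the outermost group held the highest summit, as in Ptprs, Cntnap2 and Dlg3. Kalrn and Ptprd are counted among the 10, although GENCODE has no coding transcript at their outermost groups. With coding TSSs alone their best scores were 207 and 67.6, both at later groups. Camk2g is counted among the 10, although its highest summit lay within 1 kb of 2 groups and nearest to a TSS of the later one. In 13 members a later group held the highest summit, among them Dlg1, Dlg2, Shank2, Dlgap4 and Iqsec1. Dlgap2 is counted among the 13, although its highest summit stood at a group without a coding transcript in GENCODE. Of these 13, Dlgap1, Dlgap2, Shank3, Lrrc4b, Lrrc4c and Cntnap1 had an outermost summit close to the highest one, with 202 and 222 in Cntnap1 and 213 and 233 in Lrrc4c as the widest pairs. With each summit counted to its nearest group alone, 23 members (44.2%, against 7.07% of all genes) had 2 or more marked groups. Limiting the TSSs to those of protein-coding transcripts left 19 members (36.5%, against 5.78%).

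**Figure D4:**
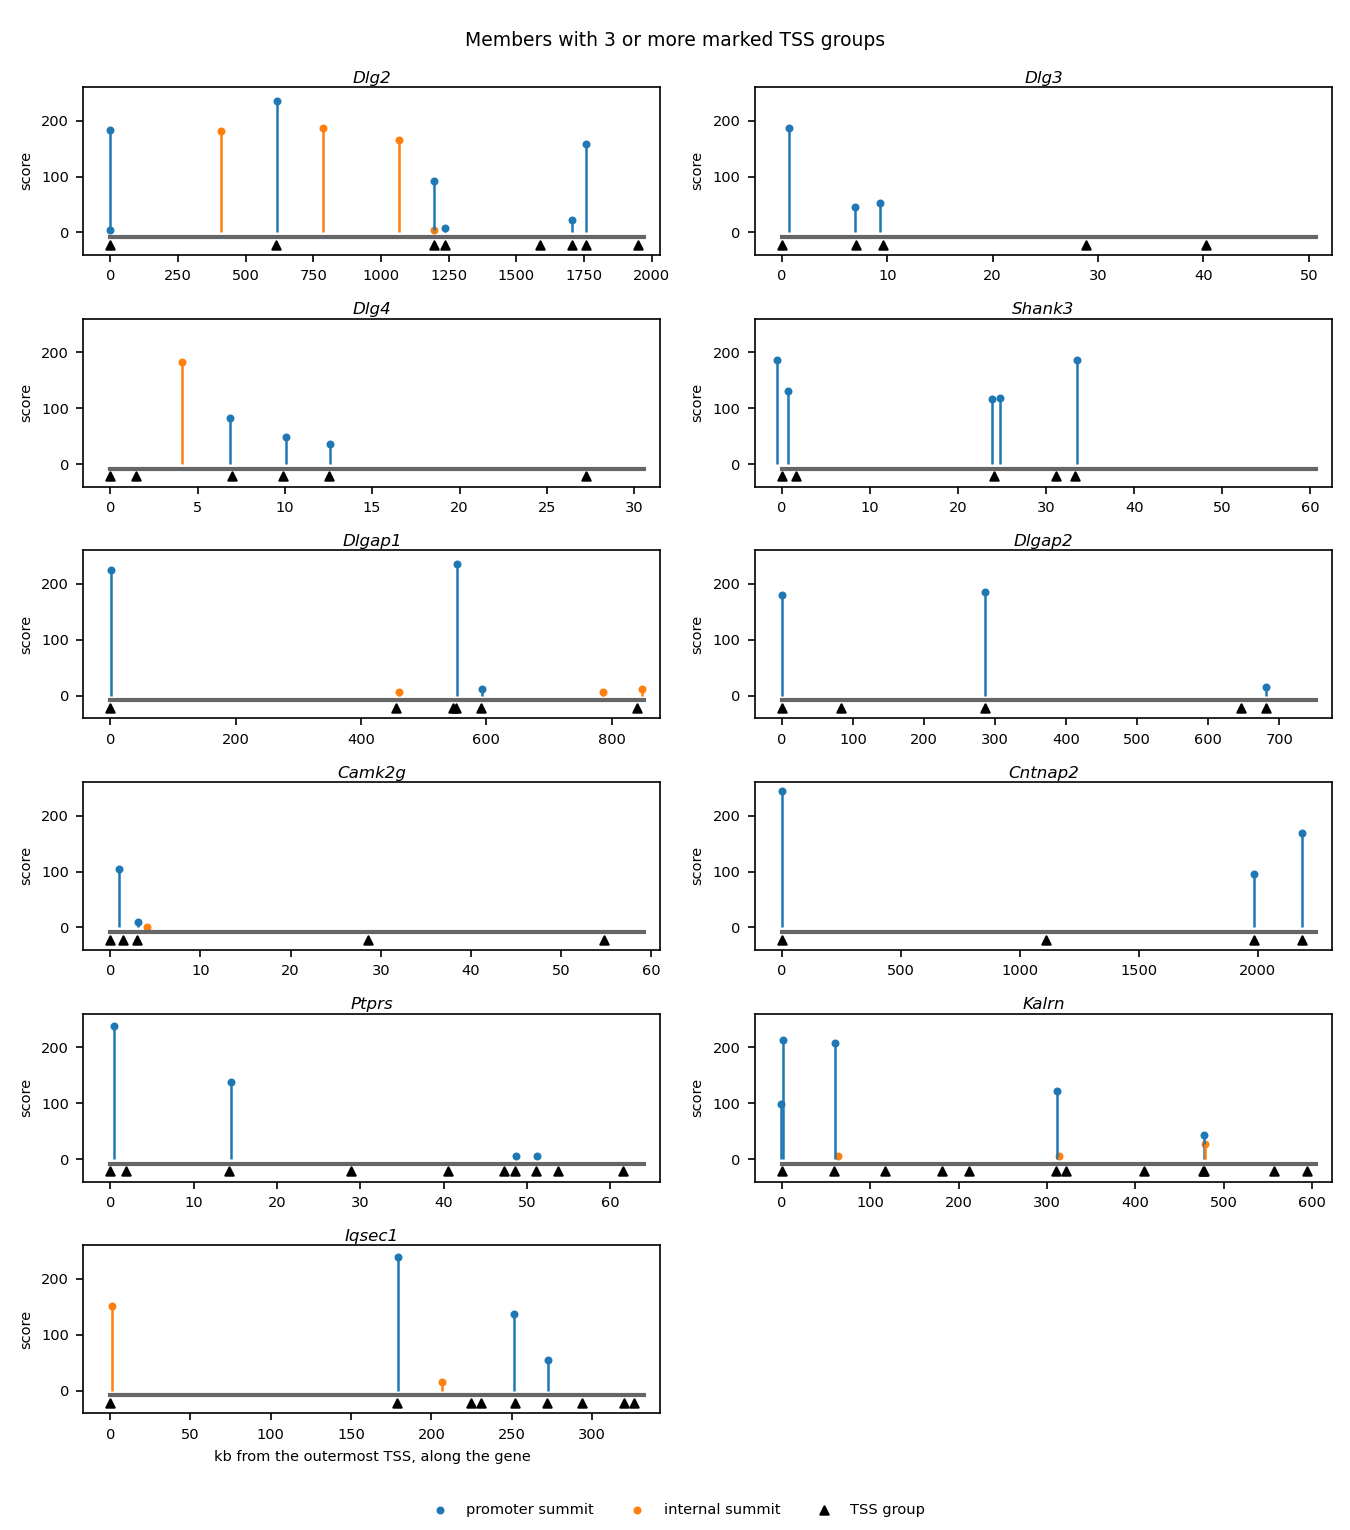
Each panel is 1 of the members with 3 or more marked TSS groups, drawn in kb from its outermost TSS along the gene (grey bar), with a triangle for each TSS group and a line for each summit whose height is its score. Dlg2 has strong promoter and internal summits along most of its length, Cntnap2 has none between its first promoter and 1985 kb, and the scores of Kalrn fall along the gene.

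The 71 internal summits of the members had a median score of 12.1, and 33 scored below 10. They numbered 3.89 per Mb of gene, against 5.05 per Mb over all protein-coding genes, so a larger share of members held one while their number per length was lower. In genes of at least 100 kb the density was 2.50 per Mb in members and 4.22 per Mb overall. These densities include summits within 1 kb of a TSS of another gene, which were 6 of the 71 in members. Without such summits 34 members (65.4%) and 12.5% of all genes held an internal summit. Densities without them were not computed. Of the 71, 53 lay in introns and 11 in exons of the transcript with the longest coding sequence, and 7 lay outside that transcript. Scores at or above the list median were reached by 15 internal summits in 12 members. Of these 15, 8 lay within 3 kb of a TSS of the same gene and 5 within 1 kb of a RefSeq TSS. The 4 that had none of these, nor a TSS of another gene within 1 kb, lay in Dlg2, Slitrk3 and Tanc2. They were 2 of the Dlg2 summits, of 187 and 165, with those of Slitrk3 at 140.1 and Tanc2 at 139. The 5 highest internal summits in exons were those of Lrrtm3 and Agap2, then Shank1, Slitrk5 and Dlgap3, the last 3 in the final exon of the gene. Around these 5 the CpG content, counted as the ratio of observed to expected CpG within 500 bp of each, was 0.51 to 0.80, against medians of 0.44 around the 15 internal summits at or above the list median and 0.26 around the 33 scoring below 10. Single summits of that last class reached 0.79 in Cadm2 and 0.66 in Camk2b, and most summits below 10 lay in introns, so score and location were not separated.

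The mice were male, so each nucleus held 1 X chromosome. The 6 X-linked members were Dlg3, Nlgn3, Il1rapl1, Slitrk2, Slitrk4 and Iqsec2. The 5 marked ones had best scores of 142 to 206 with a median of 191, and the 43 marked autosomal members had a median of 222. None of the X-linked members scored above the upper quartile of marked genes, whereas 17 of the autosomal ones did. Over all marked protein-coding genes the medians were 163 on chromosome X and 197 on autosomes, so the order of the members was that of the genome.

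CpG content within 500 bp of the TSS nearest to the best summit (the outermost TSS in unmarked genes) ranged from 0.23 (Camk2g) to 0.99 (Camk2b) among the members, with a median of 0.55 against 0.59 over all protein-coding genes. Across the 48 marked members it showed almost no relation to the best score (Spearman's rank correlation 0.06), and across the 14197 marked genes the correlation was 0.26. These genes share 1 peak list and are not independent replicates. Camk2b combined the highest CpG content with one of the lowest scores, although a summit of 194 lay just beyond its 1 kb window. Camk2a had 0.31 with a score of 273, but at its second TSS group, where 1 of its 7 transcripts starts. The value of Camk2g was also taken at its second group, which holds 1 noncoding transcript. CpG content at the outermost TSS groups of Camk2a and Camk2g, where 4 and 8 transcripts start, was not measured. A GC box (GGGCGG) within 250 bp before the same TSS, on either strand, was found in 25 members (48.1%, against 44.8% of all protein-coding genes). CCAAT was found in 9 (17.3%, against 33.4%) and TATAAA in 2, Dlg1 and Dlgap1 (3.85%, against 10.1%). The cAMP response element TGACGTCA was found in Lrrtm2 and Ptprs (3.85%, against 2.09%), the E-box CACGTG in Ptprs and Slitrk6 (3.85%, against 6.53%) and the NRF1 core GCATGCGC in Cntnap1 (1.92%, against 3.30%). Within 500 bp the share with CCAAT rose to 44.2%, against 52.1% of all genes. Such matches are descriptions of letters and not of binding.

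**Figure D5:**
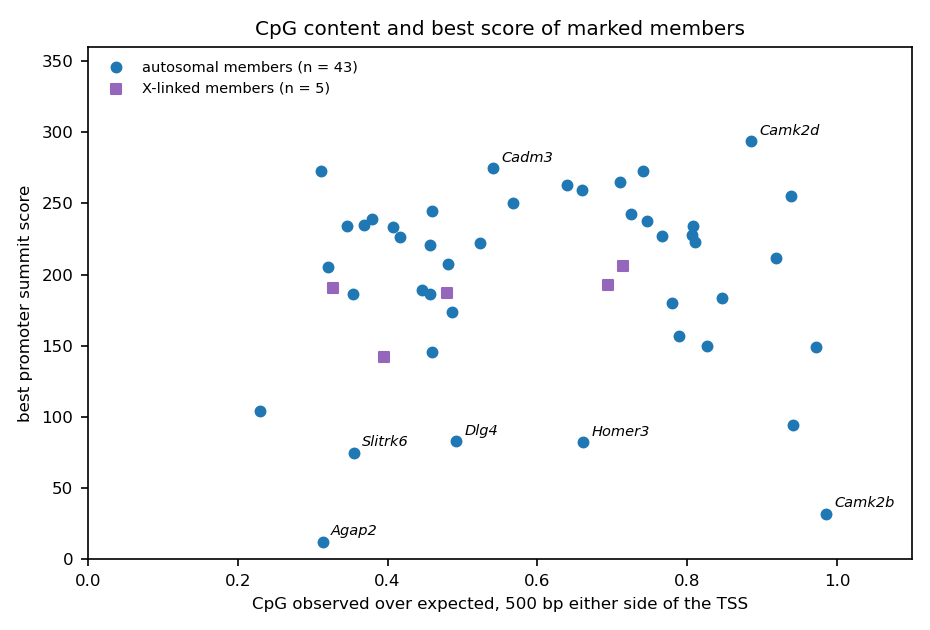
Each point is a marked member, with the ratio of observed to expected CpG within 500 bp of the TSS on the horizontal axis and the best promoter score on the vertical axis, for 43 autosomal (circles) and 5 X-linked genes (squares). The points show no trend (Spearman's rank correlation 0.06). Camk2b, whose summit of 194 just beyond 1 kb is not counted, lies at the lower right.

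Among 60 other genes of postsynaptic scaffolds, adhesion and synapse organisation, 58 were marked (96.7%), with a median best score of 184 against 209.7 in the members. The highest were Flrt3, an adhesion molecule that binds latrophilins, at 280.4, Lin7a, a scaffold of the MAGUK complex, at 262, and Clstn3, a calsyntenin, at 260.3. The 2 without a promoter summit were Flrt1 and Nptx1, which encodes a neuronal pentraxin and had an internal summit of 180.2. Of the 60, 19 had 2 or more promoter summits (31.7%), against 53.8% of the members. Both lists thus had a share of marked genes above the 64.7% of all genes. Among genes of at least 100 kb the members' share was not above the background, which lay within its interval of 64.1% to 93.3%. The difference in promoter summits between the lists cannot be tested in 1 pooled list.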

How the data were processed

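H3K4me3 ChIP-seq was performed on MNase-digested amygdala nuclei. According to the study's methods and the submitters' processing notes, the authors mapped reads to mm10 with Bowtie (at most 2 mismatches, unique hits) and ran MACS2 2.1.0.20140616 against input at q < 0.1 and a fold enrichment over 1. The authors deposited 1 list of WT summits for both WT samples, in which the score column was taken to be −log10 q-values. Depth per summit is not in the list, and per-sample columns left unmatched numbered 0.

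Genes and TSSs came from GENCODE M21 on GRCm38, TSSs up to 1 kb apart were joined into groups, and 23 summits off the main chromosomes were left out. RefSeq TSSs and exons of GRCm38 served as an added annotation, and sequences were read from the RefSeq genome. The named genes are all 52 members, in 13 role groups, with every value for the 5 highest and lowest, those unmarked, those with 2 or more marked TSS groups and internal summits of at least 10. Of other synapse genes, the 3 highest, Homer1 and those unmarked are named. The members, lists and rules were chosen with earlier results of these data known. Single microglial markers are not reported here. Alternatives changed the window, the summits kept, the TSSs used and the joining of summits or TSSs. The scripts were tested on simulated data. Versions were Python 3.11.15, pandas 2.3.3, numpy 2.4.6, scipy 1.17.1 and matplotlib 3.10.9.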

Additional observations from a re-analysis of the deposited data

How the results depend on the processing

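Of 50 recomputed values, 43 stayed within 1.5 times the reported count or within the interval of the reported median, and 7 did not. The 28 members with 2 or more promoter summits became 17 with a window of 500 bp, 18 with summits at or above the list median and 7 with the outermost TSS alone, where the shares of all genes were 7.59%, 4.27% and 4.36%. The 35 members with an internal summit became 12 with summits at or above the list median, against 3.22% of all genes. The median place of the best summit moved from 341.5 bp to 223.5 bp with the 500 bp window, which by construction leaves out the farther summits. With 500 bp before the TSS in place of 250 bp, members with TATAAA rose from 2 to 5 and those with CCAAT from 9 to 23, as a longer window holds more matches. The number of marked members ran from 40, with the outermost TSS alone, to 52, with a window of 3 kb. With the outermost TSS alone the median best score was 189 in members and 194 in all genes, so the order of these medians turned. RefSeq TSSs were added after seeing the data and left 48 members marked. No paired analysis was possible because both WT mice share 1 list and no test was made. The q-value behind each score is limited by the depth of the WT libraries, the reads behind each summit are not in the list, and scores do not compare genes by the amount of the mark.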
